A study of Mus musculus with 6 samples.

Results

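A set of 10 genes of glucose uptake and glycolysis was followed in bone marrow regulatory T cells: the transporters Slc2a1 and Slc2a3, the enzymes Hk1, Hk2, Pfkp, Aldoa, Pgk1, Eno1 and Ldha, and the transcription factor gene Hif1a. They were chosen by name, and every probe that the platform annotation gives to any of these 10 symbols was used. There were 15 such probes of 46632 on the array, for 9 of the 10 genes, and Eno1 was not analysed here. Of these, 7 genes had a probe detected on at least 3 of the 6 arrays (detection p under 0.05) and entered the comparison of 8743 genes. Pgk1 and Hif1a had probes but were not detected on any array.

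RNA came from mice of the C57/B6 strain that carried a gfp allele of Blimp1, the gene also called Prdm1, on 1 chromosome (Blimp1 +/gfp, 3 samples) or on both (Blimp1 gfp/gfp, 3 samples). All 6 samples therefore carry at least 1 gfp allele, and no sample has 2 unaltered copies. Blimp-1 is a transcriptional repressor that acts in lymphocyte differentiation, and from general knowledge of this allele the gfp copy makes no working protein. The labels give neither the age of the mice nor the gate by which the cells were obtained, nor whether the samples of a genotype were separate animals, so the spread between them may be technical. Each genotype was hybridised on an Illumina BeadChip of its own, and BeadChip and genotype cannot be told apart.

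Glycolysis begins with the entry of glucose through SLC2A (GLUT) transporters and its capture by hexokinases. Phosphofructokinase commits the sugar to the pathway, aldolase splits it, and the later enzymes yield ATP and pyruvate, which lactate dehydrogenase turns into lactate. HIF-1, made of HIF-1α and ARNT, is known to raise transcription of most of these genes when oxygen is low. Activated effector T cells are known for high glycolysis, and regulatory T cells are usually described as less dependent on it.

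In Blimp1 gfp/gfp samples the transcript of Slc2a3, which encodes the high-affinity glucose transporter GLUT3, was at 49.5% of its level in Blimp1 +/gfp, and the other 6 genes tested did not pass the test. Thus 1 of 7 passed, 0 higher and 1 lower, beside 4.12% of all 8743 genes in either direction, 2.42% higher and 1.69% lower. Without adjustment Slc2a3 was again the 1 of 7 with p under 0.05, beside 18.5% of all genes. Over all genes, 212 were higher and 148 lower, or 294 and 120 with median scaling in place of quantile normalization. The counts fell to 54 higher and 17 lower without Blimp1 +/gfp replicate 1, to 73 and 19 without replicate 2 of that genotype, and to 102 and 81 without the first Blimp1 gfp/gfp replicate. They were 76 and 50 when Blimp1 gfp/gfp replicate 2 was omitted, and 62 and 35 when replicate 3 was. Outside the 10, the related transporter gene Slc2a6 was 7.80-fold higher, and less so without background correction, as given with its values. Values below are log2 of normalized intensity, differences are Blimp1 gfp/gfp minus Blimp1 +/gfp with the standard error of the limma fit, and adjusted p-values are Benjamini-Hochberg values over all 8743 genes, with a threshold of 0.05. In bulk RNA, fewer cells of a type and less RNA per cell cannot be told apart.

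The 6 arrays detected 31.5% to 34.5% of their probes, and Foxp3 and Cd3e, which mark regulatory T cells and T cells, were detected on all 6. The 6 regulatory T cell markers summed to between 29170 and 33190 linear units in Blimp1 +/gfp and between 17000 and 25930 in Blimp1 gfp/gfp. The 8 T cell markers summed to between 114600 and 126600 in Blimp1 +/gfp and between 98480 and 124000 in Blimp1 gfp/gfp. On both lists the lowest sum, 17000 and 98480, was that of Blimp1 gfp/gfp replicate 1, which stood apart in this and in its Lyz2 and Pfkp values given below. Another library stood apart in MHC class II and in some, not all, myeloid genes. Blimp1 +/gfp replicate 3 had the most RNA of Fcer1g (12.91, against 7.80 to 9.73 elsewhere), a signalling chain of myeloid Fc receptors, and of H2-Ab1 (14.47, against 11.08 to 12.28), an MHC class II chain, markers picked out after their values were seen. Of the tested markers on the myeloid list, Lyz2 (10.94) and Tyrobp (9.89) were also highest in that sample. Ly6c1 (11.96) and Mpo (4.97, not detected) were lower there than in the other Blimp1 +/gfp samples, and Cebpb (11.09) lay between them. The 12 myeloid and granulocyte markers with a probe summed to 8954, 9578 and 18660 linear intensity units in Blimp1 +/gfp and to 4143, 2661 and 3638 in Blimp1 gfp/gfp. The neutrophil genes S100a8 and S100a9 were not detected in Blimp1 +/gfp replicate 1 or in any Blimp1 gfp/gfp sample. The 9 dendritic cell and antigen presentation markers summed to between 13640 and 70030 in Blimp1 +/gfp and between 11240 and 19600 in Blimp1 gfp/gfp, with Flt3 undetected throughout. Erythroid and megakaryocyte markers ran from 398.3 to 26350 within Blimp1 +/gfp, highest in replicate 3, and from 2475 to 18700 within Blimp1 gfp/gfp. B cell markers summed to between 1025 and 2319 in Blimp1 +/gfp and between 1435 and 2922 in Blimp1 gfp/gfp, with Pax5 undetected on all 6 arrays. Among them Cd79a, a chain of the B cell receptor, was 5.15, 5.36 and 7.30 in Blimp1 +/gfp, the first and second of these not detected, and 8.53, 7.35 and 7.64 in Blimp1 gfp/gfp, without overlap, and it did not pass (1.91 ± 0.60, SE; limma adjusted p = 0.146). CD8 and NK cell markers summed to between 3355 and 4234 and between 2770 and 5069, with Ncr1 and Gzma undetected throughout. For the 7 genes tested, Slc2a6 and Arnt2, differences are given below with and without Blimp1 +/gfp replicate 3.

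**Figure D1:**
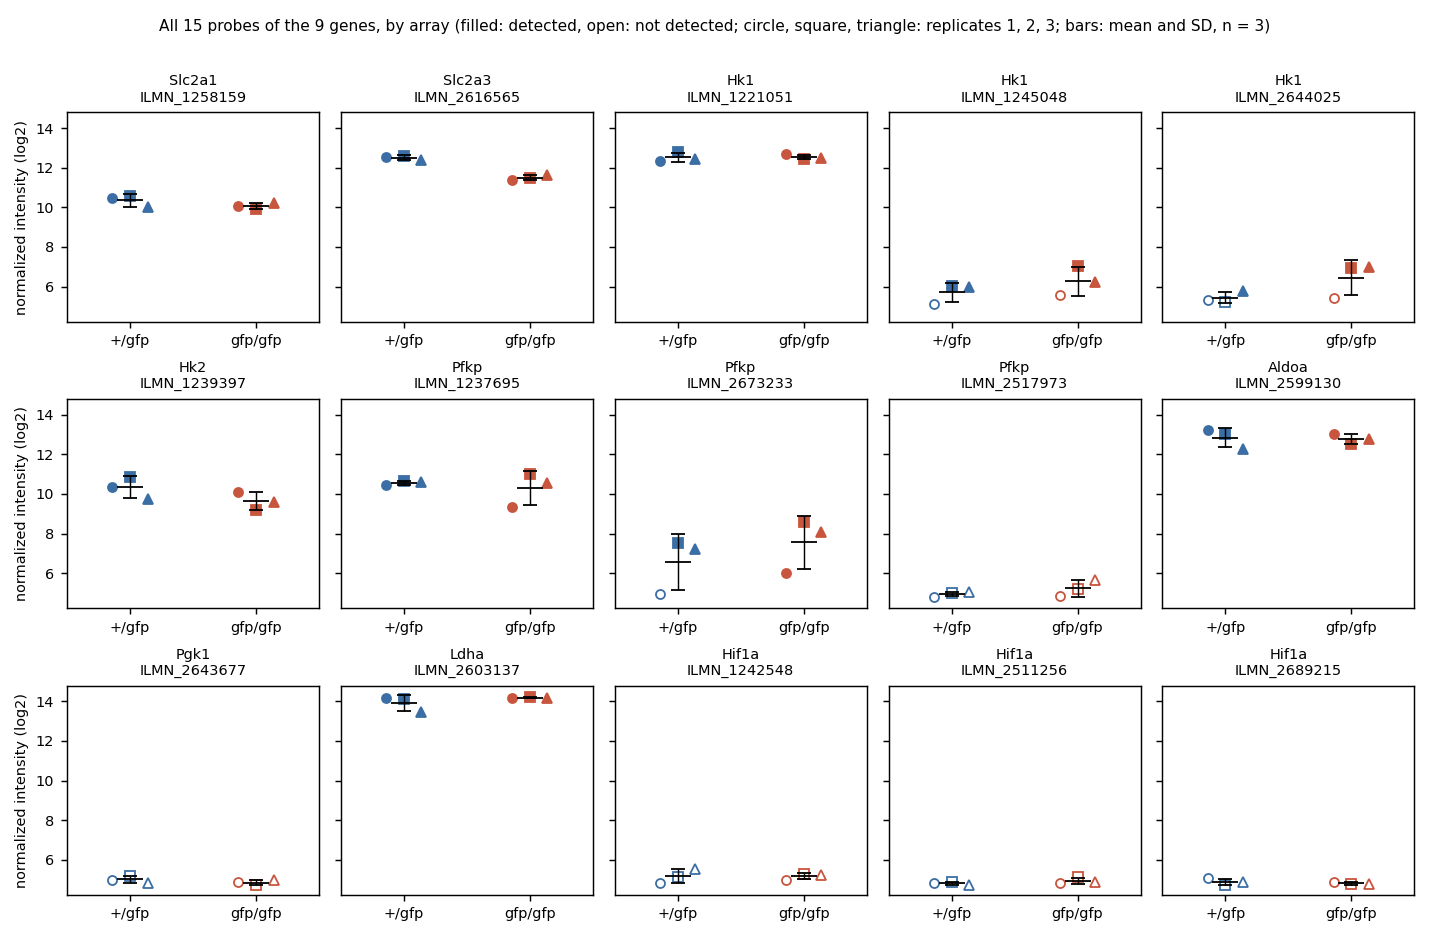
Normalized log2 intensity (y axis) on each array for the 15 probes of 9 genes, by genotype (x axis). Filled symbols are detected values and open symbols are not, and bars show the mean and SD of 3 arrays. Only the Slc2a3 probe separates the genotypes with a passed test, and the probes of Pgk1 and Hif1a are open on every array.

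Slc2a3 had 1 probe, detected on every array. Its log2 values were 12.54, 12.61 and 12.37 in Blimp1 +/gfp and 11.38, 11.47 and 11.62 in Blimp1 gfp/gfp. The lowest Blimp1 +/gfp sample lay above the highest Blimp1 gfp/gfp sample, so the groups did not overlap, which was true of 25.8% of all genes. Slc2a3 fell by 1.02 ± 0.14 (SE), a 2.02-fold difference (limma adjusted p = 0.0145; 95% interval of the remaining level 39.0% to 62.7%). Before normalization the intensities were 6420, 6509 and 4252 in Blimp1 +/gfp and 2878, 3334 and 3372 in Blimp1 gfp/gfp. The groups did not overlap on the scanner's scale either, but the nearest samples, 4252 and 3372, were proportionally closer than after normalization.

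The size of the Slc2a3 difference varied little between settings, but its call did. With each array left out in turn, the difference lay between -1.09 and -0.96. Leaving out Blimp1 +/gfp replicate 3 gave a limma adjusted p of 0.0208, and leaving out the first Blimp1 gfp/gfp replicate gave 0.0476. The call ended without Blimp1 +/gfp replicate 1 (0.0664) or 2 (0.0731), and without Blimp1 gfp/gfp replicate 2 (0.0592) or 3 (0.058). It also ended with median scaling, where the adjusted p was 0.0623. Lyz2, a macrophage lysozyme, was 10.29, 10.55 and 10.94 in Blimp1 +/gfp and 10.28, 7.35 and 7.16 in Blimp1 gfp/gfp. The summed myeloid and regulatory T cell markers were also lower in all 3 Blimp1 gfp/gfp samples, but single myeloid markers differed. From Blimp1 +/gfp replicate 1 to Blimp1 gfp/gfp replicate 1, Ly6c1 went from 12.18 to 9.45 and Cebpb from 11.10 to 10.20. Lyz2 and Fcer1g (8.98 and 9.01) were nearly equal in these samples, and Tyrobp was higher in the latter (6.97 and 7.33). The part of myeloid or regulatory T cell RNA in the Slc2a3 difference was not tested. On each of the myeloid and regulatory T cell lists limma called 1 of 6 tested markers, lower in Blimp1 gfp/gfp, beside 1.69% of all genes. They were Ly6c1 (-2.82; limma adjusted p = 0.0485) and Tnfrsf18 (-1.11; 0.0242), whereas Foxp3 (-0.28; 0.696) did not pass.

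Slc2a1 encodes GLUT1, the transporter that T cells are known to raise on activation. Its 1 probe read 10.49, 10.56 and 9.995 in Blimp1 +/gfp and 10.09, 9.92 and 10.22 in Blimp1 gfp/gfp. Blimp1 +/gfp replicate 3 fell within the range of the Blimp1 gfp/gfp samples, and the groups overlapped. The difference was -0.28 ± 0.19 (SE; limma adjusted p = 0.523), with a 95% interval of 59.9% to 114% of the Blimp1 +/gfp level. Without Blimp1 +/gfp replicate 3 it was -0.46 ± 0.17 (limma adjusted p = 0.224), so the call did not change.

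The transporters were also compared within arrays. The Slc2a1 log2 value minus that of Slc2a3 was -2.04, -2.04 and -2.37 in Blimp1 +/gfp and -1.29, -1.56 and -1.40 in Blimp1 gfp/gfp, a shift of 0.74 toward Slc2a1. The groups did not overlap, and the exact two-sided permutation p was 0.1, the smallest that 3 against 3 arrays allow, or 0.4 after Benjamini-Hochberg adjustment over the 4 pairs tested in this way. The test therefore could not pass in this design and leaves unequal change undecided. The probes differ in how well they bind, so these values do not say which transcript was more abundant.

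A further 10 glucose transporter genes were listed, all with a probe, and 3 were detected well enough to test. Of these 1 was higher, 0 were lower, and 2 did not pass, beside 2.42% higher and 1.69% lower of all genes. Before adjustment 1 was higher and 1 lower (Slc2a8, given below), beside 988 and 631 of all 8743 genes. Slc2a6, which encodes GLUT6, a transporter found in leukocytes and inside the cell, was 7.78, 7.66 and 7.44 in Blimp1 +/gfp and 10.73, 11.03 and 10.02 in Blimp1 gfp/gfp. Every Blimp1 gfp/gfp sample was above every Blimp1 +/gfp sample by more than 2 log2 units. Slc2a6 rose by 2.96 ± 0.27 (SE; limma adjusted p = 0.00568), with a 95% interval of 5.01-fold to 12.2-fold. It passed in all 6 omissions of an array and all 10 other settings, with a limma adjusted p between 0.000813 and 0.0421. The difference was 2.90 without Blimp1 +/gfp replicate 3 (limma adjusted p = 0.00879) and 2.34 without background correction (0.00251). Beside the Slc2a6 values of 10.73, 11.03 and 10.02 in Blimp1 gfp/gfp, Lyz2 was 10.28, 7.35 and 7.16 in the same samples, and Cd79a was higher in all 3 than in any Blimp1 +/gfp sample. The part of myeloid or B cell RNA in the Slc2a6 difference was not tested. The other tested members of that list are named because they complete it, after their values were seen. Slc2a8, which encodes GLUT8, differed by -0.55 ± 0.21 (SE; limma adjusted p = 0.224), and Slc2a9, a urate transporter of the same family, by 0.12 ± 0.24 (0.858).

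**Figure D2:**
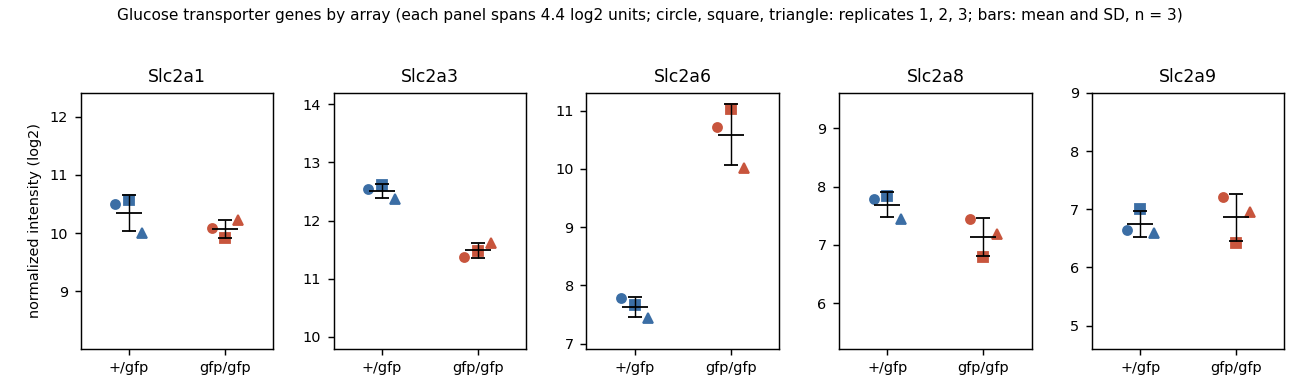
Normalized log2 intensity (y axis, the same span in each panel) of 5 transporter genes on each array, by genotype (x axis), with the mean and SD of 3 arrays as bars. Slc2a3 is lower and Slc2a6 higher in all 3 Blimp1 gfp/gfp samples than in any Blimp1 +/gfp sample, while Slc2a1, Slc2a8 and Slc2a9 did not pass the test.

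Hexokinases phosphorylate glucose and so keep it in the cell. Hk1, the widely expressed form, read 12.36, 12.79 and 12.44 in Blimp1 +/gfp and 12.67, 12.44 and 12.50 in Blimp1 gfp/gfp on its brightest probe. The values of the genotypes interleaved, and the difference was 0.0078 ± 0.17 (SE; limma adjusted p = 0.99), with a 95% interval of 76.5% to 132% of the Blimp1 +/gfp level. Without Blimp1 +/gfp replicate 3 the difference was -0.038 ± 0.19 (limma adjusted p = 0.953). The other Hk1 probes were near background. ILMN_1245048 was detected on 2 arrays of each genotype and differed by 0.55 ± 0.41 (SE; limma adjusted p over 15800 probes = 0.585), and ILMN_2644025, detected on 1 Blimp1 +/gfp and 2 Blimp1 gfp/gfp arrays, by 1.001 ± 0.43 (0.313). Over all probes 3.25% passed. ILMN_2644025 passed without Blimp1 gfp/gfp replicate 1 (limma adjusted p = 0.0386) and with array weights (0.0264), while the brightest probe did not pass in either setting. The mean over the kept Hk1 probes differed by 0.52 ± 0.26 (SE), against 0.0078 for the brightest alone.

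Hk2, the inducible hexokinase of growing cells, read 10.37, 10.88 and 9.76 in Blimp1 +/gfp and 10.11, 9.20 and 9.58 in Blimp1 gfp/gfp. Among the 7 genes it had the largest difference after Slc2a3, -0.70 ± 0.34 (SE; limma adjusted p = 0.335), and did not pass. The groups overlapped, because Blimp1 +/gfp replicate 3 was below Blimp1 gfp/gfp replicate 1. Without Blimp1 +/gfp replicate 3 the difference was -0.9998 ± 0.31 (limma adjusted p = 0.164). The Hk1 value minus the Hk2 value was 1.997, 1.91 and 2.68 in Blimp1 +/gfp and 2.56, 3.24 and 2.93 in Blimp1 gfp/gfp, a shift of 0.71 with an exact two-sided permutation p of 0.2 (0.4 adjusted over the 4 pairs). Hk3, a hexokinase found mainly in myeloid cells, was 7.06, 7.36 and 9.38 in Blimp1 +/gfp and 6.89, 6.23 and 5.70 in Blimp1 gfp/gfp, a difference of -1.66 ± 0.63 (SE; limma adjusted p = 0.22). Its highest value came from Blimp1 +/gfp replicate 3, where Fcer1g was also highest. Without that sample the difference was -0.94 ± 0.36 (limma adjusted p = 0.241).

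Phosphofructokinase is the committed step of glycolysis, and Pfkp encodes its platelet-type subunit. The brightest Pfkp probe, ILMN_1237695, read 10.47, 10.65 and 10.60 in Blimp1 +/gfp and 9.35, 11.03 and 10.54 in Blimp1 gfp/gfp. The Blimp1 +/gfp samples lay close together, and the Blimp1 gfp/gfp samples held both the lowest and the highest value. The difference was -0.27 ± 0.40 (SE; limma adjusted p = 0.803). It was -0.25 ± 0.48 without Blimp1 +/gfp replicate 3 (limma adjusted p = 0.858). It turned to 0.21 ± 0.20 without Blimp1 gfp/gfp replicate 1 (limma adjusted p = 0.673), the sample 1.43 log2 units below the mean of the other 2 of its genotype.

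The dimmer Pfkp probe, ILMN_2673233, ran the other way. It read 4.95, 7.51 and 7.21 in Blimp1 +/gfp, the first of these not detected, and 6.03, 8.57 and 8.07 in Blimp1 gfp/gfp, which is 1.0 ± 0.86 higher (SE; limma adjusted p over 15800 probes = 0.653). Both probes were lowest in replicate 1 of each genotype, and their differences between genotypes had opposite signs, with 0.37 for the mean over both. A further Pfkp probe was not detected on any array. The other subunits, Pfkl and Pfkm of the liver and muscle types, differed by 0.17 ± 0.16 and 0.28 ± 0.15 (SE), with limma adjusted p of 0.665 and 0.393. The value of Pfkp minus that of Pfkl shifted by -0.43 (exact two-sided permutation p = 0.6).

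Aldoa encodes the aldolase that splits the sugar phosphate. It read 13.21, 13.05 and 12.28 in Blimp1 +/gfp and 13.02, 12.50 and 12.77 in Blimp1 gfp/gfp. All 3 Blimp1 gfp/gfp samples lay inside the range of Blimp1 +/gfp, and the difference was -0.081 ± 0.27 (SE; limma adjusted p = 0.923), with a 95% interval of 60.2% to 148%. With median scaling the sign turned (0.056), and without Blimp1 +/gfp replicate 3 it was -0.36 ± 0.20 (limma adjusted p = 0.438).

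Ldha encodes the lactate dehydrogenase subunit that favours lactate. Its log2 values were 14.17, 14.11 and 13.44 in Blimp1 +/gfp and 14.19, 14.21 and 14.17 in Blimp1 gfp/gfp. The other 5 samples lay between 14.11 and 14.21, and Blimp1 +/gfp replicate 3 lay 0.70 below the mean of the other 2 Blimp1 +/gfp samples. The difference was 0.28 ± 0.22 (SE; limma adjusted p = 0.564), with a 95% interval of 85.3% to 173%, and 0.050 ± 0.15 without that sample (0.91). The raw intensities, 8884 in that sample and 17646 to 20591 in the other 5, were below the brightest spots of the arrays, which reached 50259 to 61147. The value of Ldha minus that of Ldhb, the subunit that favours pyruvate, shifted by 0.48 (exact two-sided permutation p = 0.4).

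Pgk1, which encodes phosphoglycerate kinase, had 1 probe, with values of 4.71 to 5.19 and a lowest detection p of 0.291. The 3 Hif1a probes, for the oxygen-regulated subunit of HIF-1, read between 4.75 and 5.55, and their lowest detection p was 0.0892. No probe of either gene was above background on any of the 6 arrays, so neither a level nor a difference is given. Pgk1 is made in nearly all cell types, and how well this probe binds was not tested, so its background values set no limit on the transcript.

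**Figure D3:**
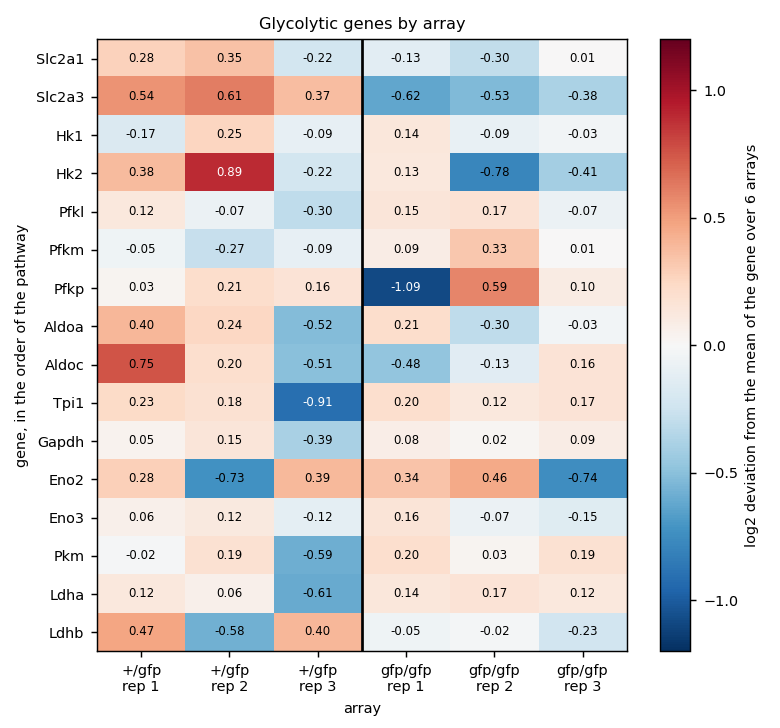
Deviation of each log2 value from the mean of its gene over the 6 arrays (colour and printed value), for 16 genes in pathway order (y axis) and the 6 arrays (x axis, genotypes divided by a line). Slc2a3 and, by less, Pfkm change sign between the genotypes. Aldoa, Aldoc, Tpi1, Gapdh, Pkm and Ldha are among the genes below their means in Blimp1 +/gfp replicate 3. Hk3 and Bpgm, also tested, are not drawn.

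Much of the variation in these genes lay within Blimp1 +/gfp. Of its 3 samples, replicate 3 was the lowest for 5 of the 7 genes tested (71.4%: Slc2a1, Slc2a3, Hk2, Aldoa and Ldha) and for 6 of 11 other glycolytic enzymes, among them Tpi1, Gapdh and Pkm. It was the lowest for 43.9% of all genes. Tpi1, which encodes triosephosphate isomerase, was 12.95, 12.90 and 11.81 in Blimp1 +/gfp and 12.92, 12.84 and 12.89 in Blimp1 gfp/gfp. Pkm, which encodes pyruvate kinase of muscle and proliferating cells, was 14.12, 14.32 and 13.55 against 14.34, 14.17 and 14.32. In both genes 5 samples were close and Blimp1 +/gfp replicate 3 was low.

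Cell cycle genes were low in the same library. All 12 tested were lowest in replicate 3 among the Blimp1 +/gfp samples, and 11 of 12 were lowest in replicate 2 among the Blimp1 gfp/gfp samples, where Slc2a1, Hk1, Hk2 and Aldoa were also lowest and 39.6% of all genes were. Between genotypes limma called 0 of the 12 (1 higher and 0 lower before adjustment), and their median difference was 0.071, beside 0.032 for all genes. Mcm6, a helicase subunit of DNA replication, differed by 0.67 ± 0.19 (SE; limma adjusted p = 0.113), passing with a trended and robust variance (0.0485), and Pcna by 0.34 ± 0.38 (0.715). The part of cell cycle, myeloid or erythroid RNA in the low glycolytic values of Blimp1 +/gfp replicate 3 was not tested.

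Other genes of the pathway were taken from lists. Among 11 other glycolytic enzymes tested limma called 0 (before adjustment 0 higher and 1 lower, Hk3, at p under 0.05), and the median difference was 0.13. Gapdh, the dehydrogenase often used as a reference gene, differed by 0.13 ± 0.18, Tpi1 by 0.33 ± 0.31 and Pkm by 0.28 ± 0.22 (SE; limma adjusted p = 0.773, 0.65 and 0.575). Without Blimp1 +/gfp replicate 3 these were -0.028, -0.043 and 0.056. Ldhb differed by -0.20 ± 0.29 (SE; limma adjusted p = 0.795). Gpi1 and Pgam1 were not analysed here.

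Enzymes that steer the flux did not pass the threshold. Among 7 regulators of glycolytic flux limma called 0, and before adjustment 1 was lower, Pdk1 (median difference -0.13). Pdk1, a kinase that turns off pyruvate dehydrogenase, was 10.11, 10.36 and 10.06 in Blimp1 +/gfp and 9.77, 9.73 and 9.92 in Blimp1 gfp/gfp, without overlap, and differed by -0.37 ± 0.15 (SE; limma adjusted p = 0.245). Pfkfb3, which makes the activator of phosphofructokinase, differed by -0.36 ± 0.19 (0.363). Of 6 genes of pyruvate and lactate handling, limma called 0, and 0 before adjustment. Among them Pdp1, the phosphatase that counters the Pdk kinases, differed by 0.27 ± 0.19, Dlat, a subunit of the pyruvate dehydrogenase complex, by 0.19 ± 0.14, and Slc16a3, a lactate exporter detected on 3 of the 6 arrays, by 0.40 ± 0.37. The lactate transporter gene Slc16a1 did not enter the comparison. Of 5 pentose phosphate genes, which branch from the first step of glycolysis, limma called 0, and 0 before adjustment, and Rpe and Pgls differed by -0.28 ± 0.16 and 0.19 ± 0.14 (SE).

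**Figure D4:**
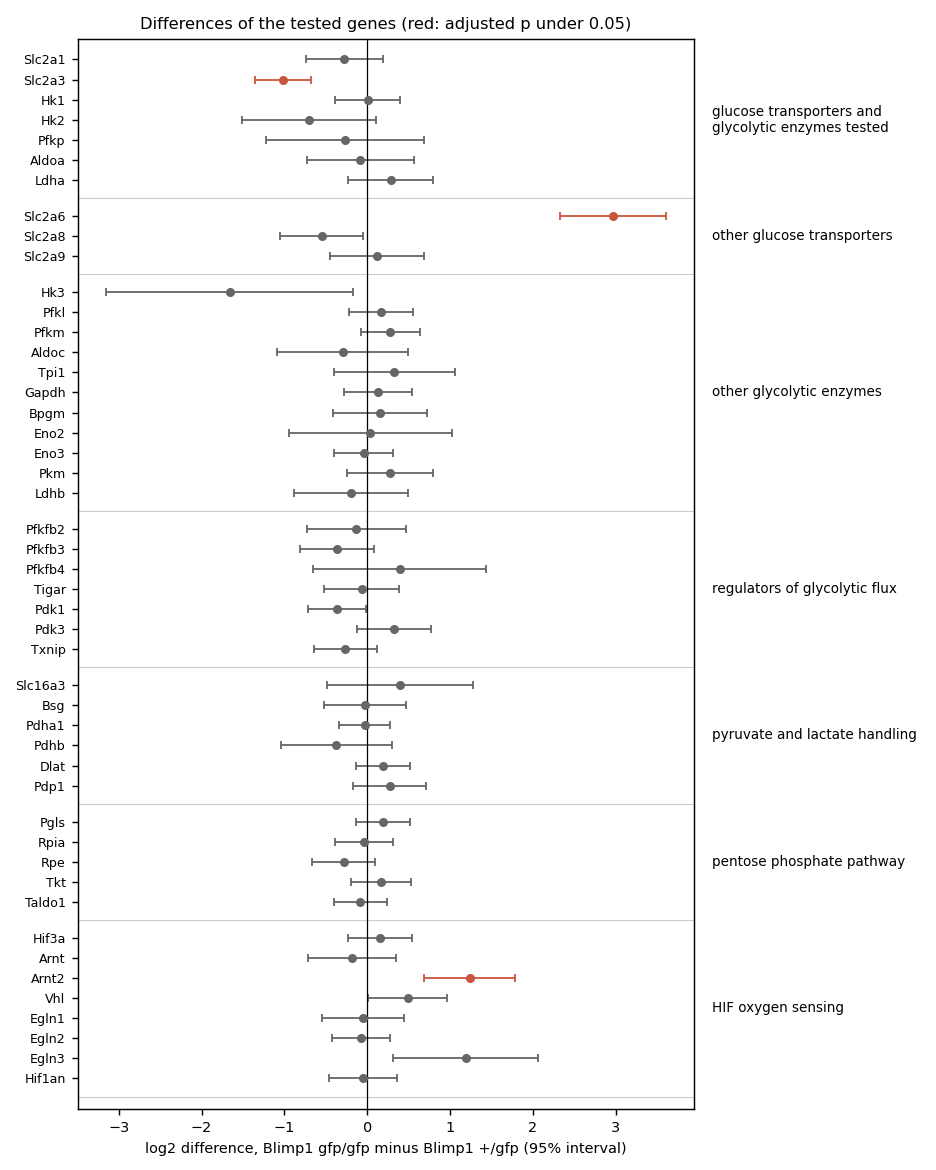
Log2 difference, Blimp1 gfp/gfp minus Blimp1 +/gfp (x axis), with its 95% interval from limma, for the tested genes of 7 lists (y axis). Slc2a3, Slc2a6 and Arnt2, in red, passed the threshold, and the intervals of most other genes include 0.

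Although Hif1a itself was not detected, other parts of oxygen sensing were. Of 8 such genes tested, limma called 1 higher and 0 lower, with a median difference of 0.052. Before adjustment 3 of the 8 were higher, beside 988 higher of all 8743 genes. Arnt2, which encodes a partner of HIF-α subunits known mainly from neural tissue, was 6.27, 6.31 and 5.94 in Blimp1 +/gfp and 6.96, 7.53 and 7.74 in Blimp1 gfp/gfp. The groups did not overlap, and all values were low. Arnt2 rose by 1.24 ± 0.23 (SE; limma adjusted p = 0.0362). Without background correction it was 0.57 and did not pass (limma adjusted p = 0.0576). It passed in 1 of the 6 omissions of an array (0.026 without Blimp1 gfp/gfp replicate 1) and failed without Blimp1 +/gfp replicates 1, 2 and 3 (0.111, 0.112 and 0.0741, the last with a difference of 1.13) and Blimp1 gfp/gfp replicates 2 and 3 (0.124 and 0.125). The others higher before adjustment, Egln3 and Vhl, are named after their values were seen. Egln3 differed by 1.19 ± 0.37 and Vhl by 0.49 ± 0.20 (SE; limma adjusted p = 0.141 and 0.257). Of 17 other genes known as HIF-1 targets limma called 0, with a median difference of 0.19. Before adjustment 3 of the 17 were higher and 0 lower, beside 988 and 631 of all 8743 genes. Ddit4, an inhibitor of mTOR signalling, differed by 0.83 ± 0.28 and Plod2, a collagen lysyl hydroxylase, by 0.71 ± 0.28 (SE; limma adjusted p = 0.173 and 0.238). Ddit4 passed with array weights (1.16; limma adjusted p = 0.045). Vegfa, the vascular growth factor, was detected on 3 of the 6 arrays and differed by -0.13 ± 0.35, and Bhlhe40, a transcriptional repressor of activated T cells, by 0.44 ± 0.29 (SE).

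Of 11 upstream drivers of glycolysis limma called 0 (1 higher and 0 lower before adjustment), with a median difference of 0.027. Irf4, a transcription factor known to support glycolysis in activated T cells, was 11.13, 10.58 and 10.33 in Blimp1 +/gfp and 11.65, 11.75 and 11.26 in Blimp1 gfp/gfp, without overlap, and differed by 0.87 ± 0.25 (SE; limma adjusted p = 0.114). Pik3ip1, an inhibitor of PI3 kinase, differed by -0.46 ± 0.20 and Myc, a driver of glycolytic genes in growing cells, by 0.027 ± 0.30 (0.282 and 0.98). Without Blimp1 +/gfp replicate 3 the differences were 0.70 for Irf4, -0.36 for Pik3ip1, 0.90 for Ddit4, 0.60 for Plod2, -0.43 for Pdk1 and 0.52 for Mcm6, and these 6 genes again did not pass.

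Promoter sequence is shown for genes of each kind of result: Slc2a1 and Ldha as classical HIF-1 targets that did not pass, Hk2 as the next largest difference, and Slc2a6 as the transporter gene that rose. Each is 300 bases from RefSeq, 250 before and 50 after the annotated start, on the strand of the gene. Capitals mark ACGTG on either strand, a form of the core of the hypoxia response element that HIF-1 binds. The form GCGTG was neither marked nor counted.
Slc2a1 promoter, GRCm38.p6 chr4:119108495-119108794, plus strand: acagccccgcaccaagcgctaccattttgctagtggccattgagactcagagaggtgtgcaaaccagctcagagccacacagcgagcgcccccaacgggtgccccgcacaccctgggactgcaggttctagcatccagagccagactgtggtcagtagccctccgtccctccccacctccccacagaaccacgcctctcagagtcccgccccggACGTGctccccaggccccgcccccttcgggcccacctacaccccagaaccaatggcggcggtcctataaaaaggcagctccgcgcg
Hk2 promoter, GRCm38.p6 chr6:82774405-82774704, minus strand: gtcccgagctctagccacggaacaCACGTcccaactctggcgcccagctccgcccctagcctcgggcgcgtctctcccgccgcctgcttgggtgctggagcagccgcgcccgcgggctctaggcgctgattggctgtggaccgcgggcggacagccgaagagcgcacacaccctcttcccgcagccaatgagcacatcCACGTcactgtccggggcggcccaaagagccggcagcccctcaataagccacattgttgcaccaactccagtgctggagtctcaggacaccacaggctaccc
Ldha promoter, GRCm38.p6 chr7:46845554-46845853, plus strand: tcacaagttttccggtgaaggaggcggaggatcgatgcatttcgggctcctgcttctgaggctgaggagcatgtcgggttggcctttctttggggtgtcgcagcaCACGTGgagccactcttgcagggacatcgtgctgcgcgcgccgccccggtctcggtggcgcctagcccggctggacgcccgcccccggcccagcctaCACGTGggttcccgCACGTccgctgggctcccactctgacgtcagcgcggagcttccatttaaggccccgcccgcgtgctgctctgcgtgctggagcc
Slc2a6 promoter, GRCm38.p6 chr2:27027949-27028248, minus strand: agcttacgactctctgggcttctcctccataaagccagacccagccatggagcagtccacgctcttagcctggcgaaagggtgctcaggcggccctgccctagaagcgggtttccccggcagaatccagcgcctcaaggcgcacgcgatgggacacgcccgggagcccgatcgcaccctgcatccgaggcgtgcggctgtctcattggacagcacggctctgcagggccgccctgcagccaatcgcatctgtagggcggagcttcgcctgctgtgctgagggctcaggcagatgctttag

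In these windows ACGTG lay 36 bases before the start of Slc2a1, 226 and 52 bases before that of Hk2, and at 3 places before that of Ldha, 145, 48 and 34 bases away. Of the 3 places at Ldha, 2 were CACGTG, an E-box that holds ACGTG on both strands and was counted once. The Slc2a6 window held no ACGTG. Read on either strand, GCGTG can be seen in the printed Slc2a1, Ldha and Slc2a6 windows, but it was not searched for. At least 1 window of 7 of the 9 genes with a promoter entry held ACGTG (8 of their 15 windows), beside 21.8% of all 27025 genes and 19.6% of all windows. Some windows overlap, and the Aldoa windows with ACGTG share the same place. Another window each of Ldha, Aldoa and Hk1 held none. The Blimp-1 motif, searched as AGNGAAAG on both strands with N any base, was in a window of 1 of the 9, Eno1, and in none of Slc2a6 or Arnt2, beside 9.91% of all genes. Slc2a3 was not among the entries. A match is a run of letters and not a measured binding site, and no match says nothing of sites elsewhere.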

How the data were processed

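Total RNA of 6 samples was amplified and labelled with Cy3, per the labels' protocols. The authors deposited a mean bead intensity per probe and array, whose values carry no sign of background subtraction or normalization, and, per the file headers, a detection p-value for each. A second table holds the authors' deposited log2 values, which differed from neqc of the intensities by at most 0.0975. BeadStudio and limma were used, per the submitters' processing notes, with versions and settings not given in the sources used here. Arrays give no read depth, and 3 arrays per genotype limit the precision.

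The intensities were processed here with neqc (limma 3.58.1, R 4.3.3): normexp correction with controls inferred from detection p-values, an offset of 16, which compresses dim differences, quantile normalization and log2. Probes were named from the platform annotation (29976 with 1 symbol, 10 with several, 16646 with none). A probe was kept where at least 3 arrays detected it at p under 0.05 (15800 probes), and each gene took its brightest kept probe (8743 genes). Genotypes were compared with limma (lmFit, eBayes) and Benjamini-Hochberg adjustment, and the code was tested on simulated data. Within-array differences between related genes were compared by exact permutation. Genes named outside the 10 were those past the threshold in each list (at most 4), or, with none past it, the lowest 2 by p. There were also 13 fixed names, and Slc2a8, Slc2a9, Egln3 and Vhl were added later. The genes and lists were chosen with earlier results of these data known. Many glycolytic genes have near-identical pseudogenes, whose RNA a probe may also bind. Alternatives were other background corrections, normalizations, filters and probe summaries, a trended or robust variance, weights for arrays, the replicate number as a block, the authors' log2 table and leaving out each array.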

Additional observations from a re-analysis of the deposited data

How the results depend on the processing

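Of 686 comparisons of 45 results with an alternative, 613 were judged the same. That meant the same direction and side of the threshold. For counts it meant a value within 1.5 times, and for the median difference of all genes a shift within a fixed margin. The count of 360 changed genes became 827 with array weights, 171 with the replicate block and 71 to 347 with 1 array left out, and that of 514 changed probes 1423, 310 and 85 to 353. Leaving out an array leaves fewer samples, and for the other changes the cause was not tested. Of the 10 genes, 0 passed with median scaling or the replicate block, and 0 to 1 with 1 array left out. Slc2a3 was -0.86 with median scaling, which moved the median of all genes from 0.032 to 0.16, so that relative to that median Slc2a3 was -1.02. It was -1.02 with the replicate block (limma adjusted p = 0.0631) and -1.09 to -0.96 with 1 array left out. With every array kept, signs turned for 5 genes: Hk1 was -0.11 with array weights, Pfkp 0.37 with a mean over probes, Aldoa 0.056 with median scaling, Pgls -0.0042 with a mean over probes, and Myc -2.5e-05 without background correction. The shift of Pfkp against Pfkl was 0.20 with a mean over probes and -0.75 to 0.076 with 1 array left out. With 1 array left out Hk1 was -0.076 to 0.14, Pfkp -0.63 to 0.21, Aldoa -0.36 to 0.098, Pcna -0.062 to 0.61, Gapdh -0.028 to 0.24, Tpi1 -0.043 to 0.52, Vegfa -0.49 to 0.071 and Myc -0.24 to 0.34. Same-numbered samples of the genotypes had correlations of their deviations of 0.189, -0.0759 and 0.00102, so the numbers were not taken to pair them, and with the replicate block the call of Arnt2 also ended (limma adjusted p = 0.101).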
